A study of Mus musculus with 9 samples.

Results

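Chemokines are small secreted or membrane-bound proteins that attract leukocytes and other cells by binding G protein-coupled receptors. They fall into classes by the spacing of their first cysteines (CC, CXC, CX3C), and several are laid out on glycosaminoglycans of the matrix to form gradients. In injured skeletal muscle, CC chemokines acting on Ccr2 draw in monocytes, CXC chemokines acting on Cxcr2 draw in neutrophils, and Cxcl12 guides migrating muscle progenitors during development. The genes described here were taken by name: every non-control spot on the array whose gene name was that of a Ccl, Cxcl or Cx3cl1 ligand or of a Ccr, Cxcr or Cx3cr1 receptor, with Cxcr4, Cxcl9, Cxcl10 and Cxcl11 left out. This gave 44 genes, 30 ligands and 14 receptors, read by 56 probes. Of these genes, 34 (23 ligands and 11 receptors) had a probe that cleared the background on 3 or more of the 9 arrays and entered the test over 22705 genes, and 23 were read above background on all 9 arrays by the probe that stood for the gene, the brightest one.

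RNA was measured on 9 single-colour arrays, 3 in each of 3 groups, from the tibialis anterior muscle of mice 3 months old. The iPax3 and iPax7 groups held mononucleated cells re-isolated from muscle that had received an injection of myogenic progenitors derived from pluripotent stem cells. The strain of both is given as NSG/NSGmdx4cv, without saying which name holds for which sample: NSG mice are immunodeficient and lack mature T, B and NK cells, and mdx4cv is a mutation of dystrophin. Adult satellite cells, which are the stem cells that reside in muscle, made up the third group and came from the strain Pax7-ZsGreen, named for a fluorescent reporter of Pax7. Per the labels, 1500 cells were sorted, with 3 mice per line and 3 independent experiments, and their RNA was amplified before labelling. The labels give no gate for the sort, so the cells that the re-isolated samples could hold are described below by markers. Levels are log2 signals relative to the 75th percentile of the same array, a difference of 1 is a doubling of the signal, and levels are compared between arrays for a probe, never between probes.

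Re-isolated and satellite samples never shared a slide or a scan day, so strain, slide, scan day and group cannot be told apart in any comparison with satellite cells. Between 57.2% and 79.9% of non-control spots were well above background on an array, with the lowest share on iPax7 replicate 1. The summed signal of 10 markers of fibro-adipogenic progenitors and fibroblasts lay between 8.79 and 10.16 on the re-isolated arrays and between 4.95 and 6.44 on the satellite arrays. For both lines against satellite cells 7 of the 10 genes passed the test, all higher, beside 1.04% of all genes tested. The summed signal of 9 measured satellite and myogenic markers lay between 4.89 and 5.78 on the re-isolated arrays and between 6.74 and 7.92 on the satellite arrays. Pax7 itself stood at 2.89, 3.53 and −0.66 on the satellite arrays and between −3.90 and −0.53 on the re-isolated ones. The third satellite array therefore lay within the re-isolated range for the gene that defines its label. Its summed signal of satellite and myogenic markers, 7.92, was nevertheless the highest of the 9 arrays. None of 13 myeloid, 13 lymphocyte and NK cell, 3 measured neutrophil or 10 endothelial markers passed the test in any comparison. In amplified RNA of sorted cells whose gate is not given, fewer cells of a type and less RNA per cell cannot be told apart.

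The 30 bases at the 5′ end of the 60-base probes that carry the results are printed in lower case on the strand given by the array design, with the mouse build mm8 coordinates that the array design lists for the probe. For Ccl5 probe 2 the listed interval is shorter than the probe. The bases are shown because the main result rests on a single probe. In addition, a pair of probes of Ccl5 and of Ccl7 read different stretches of the transcript and gave differences of unlike size. No mm8 gene model was used here, so exon and UTR are not stated.
Ccl11, chr11:81878765-81878824, plus strand: taggagtaactgaggataatagcagcttat
Ccl7 probe 1, chr11:81863197-81863256, plus strand: gcatggaagtctgcgctgaagcccatcaga
Ccl7 probe 2, chr11:81863349-81863408, plus strand: ttctgagaactgttgatgaaatgtgttgat
Ccl5 probe 1, chr11:83341989-83342048, minus strand: tctcagctgctccgaggctctgcacagcaa
Ccl5 probe 2, chr11:83342140-83342195, minus strand: atcaactatttggagatgagctaggataga
Ccl21c, chr4:42016634-42016693, plus strand: tggttcacggtccaactcacaggcaaagag
Cxcr7, chr1:92046399-92046458, plus strand: tggacatgtgtacagtagaatcttctgtgt
The Ccl21c probe is listed by the array design with 3 RefSeq transcripts, those of Ccl21a, Ccl21b and Ccl21c, so its signal cannot be assigned to one copy. Cxcr7 is the older symbol of Ackr3, and Ccl27 on this array is the current Ccl27a.

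The comparison with satellite cells asks how the re-isolated cells differ from resident muscle stem cells in the genes that call in other cells. Ccl11, eotaxin, which attracts eosinophils through Ccr3, was the only chemokine gene that passed the test, and it was higher in the re-isolated cells. The members called were 0 of 34 for iPax3 against satellite cells (0.432% of the 22705 genes tested were called there), 1 of 34 for iPax7 (0.533%), 1 of 34 for both lines (1.04%) and 0 of 34 for iPax7 against iPax3 (0.0%). Its level was 2.09, 1.26 and 2.85 on the iPax3 arrays, 4.18, 0.96 and 2.71 on the iPax7 arrays and −2.37, −6.36 and −6.84 on the satellite arrays. The lowest re-isolated array stood above the highest satellite array, and the probe was well above background on all 6 re-isolated arrays and on 1 of 3 satellite arrays. Both lines together exceeded satellite cells by 7.53 ± 1.12 log2 units (SE of the fit, 6 against 3 arrays, limma adjusted p = 0.0185). For iPax7 alone the difference was 7.81 ± 1.29 (limma adjusted p = 0.041), and for iPax3 alone 7.26 ± 1.29 (limma adjusted p = 0.0568), which did not pass the threshold of 0.05. Since 2 of 3 satellite arrays did not read the probe above background, the size depends on the background correction: with normexp both lines exceeded satellite cells by 4.17 (limma adjusted p = 0.0147). The lines themselves differed by 0.55 ± 1.29, with a 95% interval from −2.37 to 3.47.

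The call of Ccl11 rested on several arrays. For both lines together it was lost without iPax3 replicate 1 (7.53, limma adjusted p = 0.05), iPax3 replicate 3 (7.34, 0.0548), satellite replicate 2 (6.95, 0.0935) or satellite replicate 3 (6.71, 0.0885), and without satellite replicate 1 the difference was 8.94 with a limma adjusted p of 0.00413. For iPax7 alone only the fit without satellite replicate 1 kept it (9.22, limma adjusted p = 0.00753), while the others gave between 6.98 and 7.81 or, without iPax7 replicate 2, 8.64, with adjusted p between 0.0673 and 0.139. For iPax3 alone the fit without satellite replicate 1 gave a call (8.66, limma adjusted p = 0.0104). With slide as a random block the difference for both lines was 7.34 (limma adjusted p = 0.108), and with scan day as a random block 7.36 (limma adjusted p = 0.113). Fibroblast markers moved with Ccl11: Dcn, the matrix proteoglycan decorin, lay between 6.76 and 8.37 on the re-isolated arrays and between −1.71 and −0.17 on the satellite arrays, and Pdgfra, a receptor that marks fibro-adipogenic progenitors, between 3.81 and 5.48 against −4.36 to −2.24. Their part in the Ccl11 difference was not tested.

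**Figure D1:**
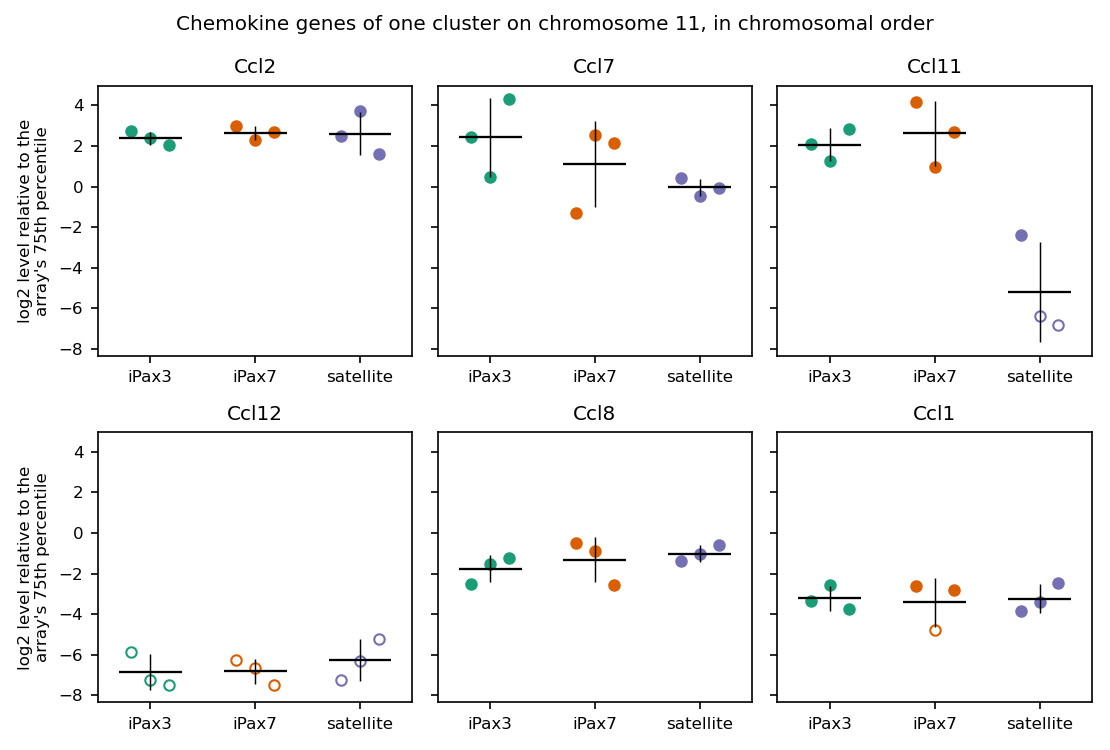
Levels of 6 chemokine genes of a cluster on chromosome 11, in chromosomal order, on each array. The y axis is the log2 signal minus that array's 75th percentile, points are arrays (open where the probe was not well above background), horizontal lines are group means and vertical lines their SD (n = 3). Ccl11 separates the re-isolated arrays (0.96 to 4.18) from the satellite arrays (−6.84 to −2.37), while in the panels of Ccl2, Ccl8 and Ccl1 the groups overlap.

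Ccl11 lies in a cluster of CC chemokine genes on chromosome 11 in the order Ccl2, Ccl7, Ccl11, Ccl12, Ccl8, Ccl1, and its neighbours gave other patterns, as the plot of the cluster by array shows. Ccl2, the main monocyte attractant acting on Ccr2, was read above background on all 9 arrays at 2.72, 2.37 and 2.07 in iPax3, 2.98, 2.29 and 2.71 in iPax7 and 2.5, 3.72 and 1.62 in satellite cells. The groups overlapped, and the difference of both lines from satellite cells was −0.09 ± 0.63, with a 95% interval from −1.51 to 1.33. Ccl7, which also acts on Ccr2, stood by its brighter probe at 2.46, 0.47 and 4.33 in iPax3, −1.30, 2.56 and 2.14 in iPax7 and 0.41, −0.46 and −0.09 in satellite cells. All iPax3 arrays were above the satellite arrays, and iPax7 replicate 1 was below them. The difference of both lines was 1.82 ± 1.08 (95% interval −0.61 to 4.26, limma adjusted p = 0.446). The other Ccl7 probe gave 0.86, −1.18 and 2.29, then −6.23, 1.5 and 1.13, then −1.63, −6.25 and −5.24, again with iPax7 replicate 1 at the low end. By that probe both lines differed from satellite cells by 4.10 ± 1.83 (adjusted p = 0.35 in the limma fit over single probes), and with the mean of the probes by 2.96 (limma adjusted p = 0.352).

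Further along the cluster, Ccl8, which in the mouse acts on Ccr8, stood at −2.5, −1.55 and −1.23 in iPax3, −0.50, −0.89 and −2.57 in iPax7 and −1.40, −1.05 and −0.59 in satellite cells. Ccl1, another Ccr8 ligand, stood at −3.35, −2.55 and −3.76, then −2.63, −4.79 and −2.79, then −3.86, −3.41 and −2.46. Both genes overlapped between all groups. Ccl12, next to Ccl11 and a mouse ligand of Ccr2, was well above background on none of the 9 arrays. Of the 6 genes of the cluster, only Ccl11 passed the test.

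At an unadjusted limma p under 0.05 the members, Ccl11 included, numbered 3, 6, 5 and 2 of 34 for iPax3, iPax7 and both lines against satellite cells and for iPax7 against iPax3, beside 12.4%, 12.4%, 15.4% and 4.1% of all genes. The median difference of the 34 members was −0.54 for iPax3, −0.19 for iPax7 and −0.29 for both lines against satellite cells, and 0.21 for iPax7 against iPax3. Medians over all genes were −0.19, −0.15, −0.16 and 0.07. Arrays of the groups did not overlap for 6 members with iPax3 (19.0% of all genes), 6 with iPax7 (16.5%), 2 with both lines (8.5%) and 5 between the lines (9.35%). These counts lie close to the same shares of 34 genes, and nothing is read from them. The comparisons with satellite cells share the same 3 satellite arrays.

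**Figure D2:**
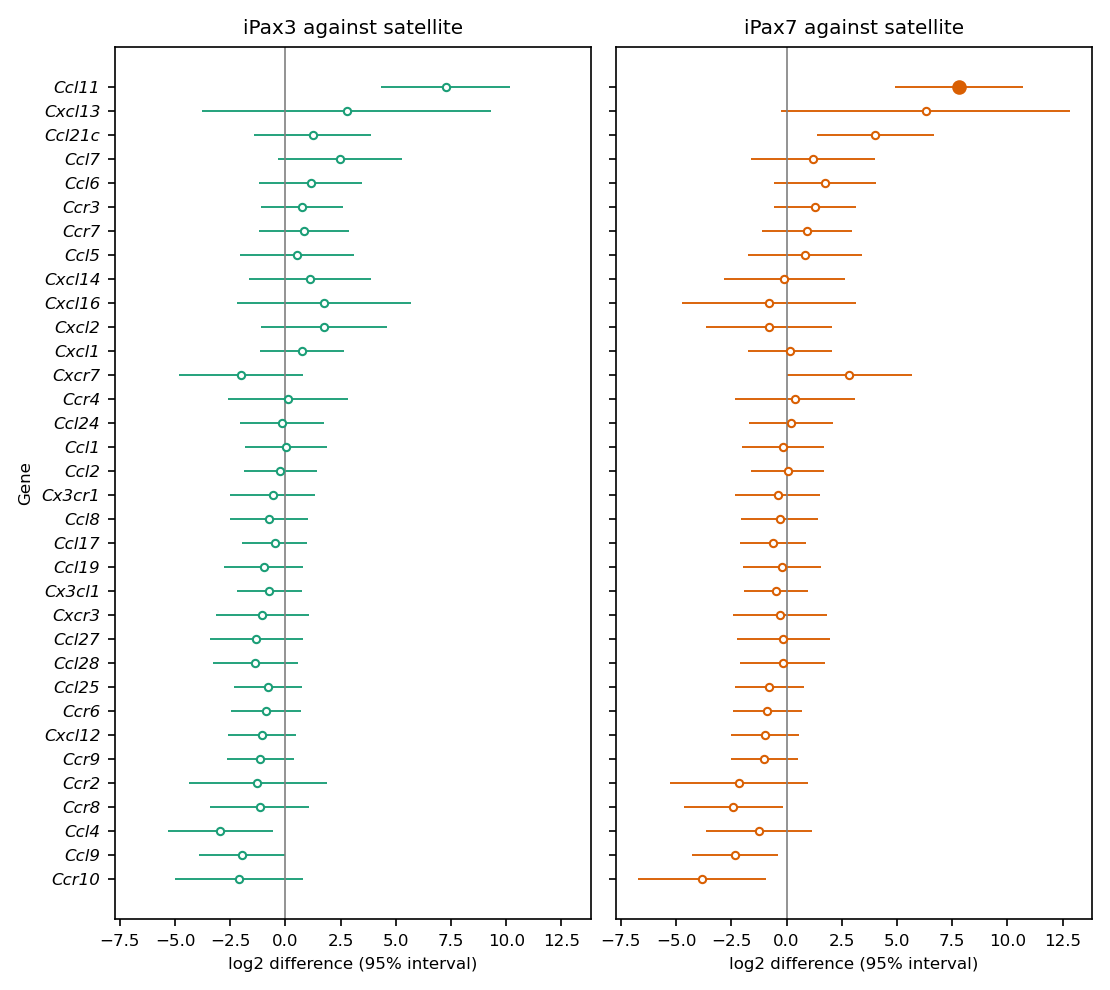
Differences of the 34 tested members from satellite cells, for iPax3 (left) and iPax7 (right), as log2 differences on the x axis with 95% intervals of the limma fit; each gene has a row. The filled point, Ccl11 in iPax7 at 7.81, passed an adjusted p of 0.05, and the open points did not. Ccl4 in iPax3 and Cxcl13 in satellite cells were not above background on any array, so their points are not measured differences.

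A list of inflammatory CC ligands held 6 measured genes, of which Ccl11 alone passed. Ccl5, RANTES, which draws T cells and monocytes, stood by its brighter probe at 1.42, 2.01 and 3.39 in iPax3, 5.21, 1.18 and 1.40 in iPax7 and 1.05, 1.67 and 2.54 in satellite cells. These groups overlapped, and both lines differed from satellite cells by 0.68 ± 0.99 (limma adjusted p = 0.776). The other Ccl5 probe read −4.66, 1.77 and 3.97, then 6.38, 1.5 and −1.26, then −5.24, −6.25 and −3.66. By that probe 5 of 6 re-isolated arrays stood above the satellite arrays, with a difference of 6.33 ± 2.08 and an adjusted p of 0.225 in the limma fit over single probes. The array design lists a RefSeq transcript for the second probe and none for the first, and on both iPax7 replicate 1 was the highest of the 9 arrays.

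Ccl9, a mouse ligand of Ccr1 made by myeloid cells, was the only member with all satellite arrays above all re-isolated arrays. Its level was −4.43, −3.81 and −4.82 in iPax3, −4.39, −5.21 and −4.55 in iPax7 and −3.69, −0.66 and −2.82 in satellite cells, and the gap between the groups was narrow beside the satellite range. The probe was well above background on all iPax3 and satellite arrays but on only 1 of 3 iPax7 arrays. The difference, which uses these unread values, was −2.15 ± 0.75 (95% interval −3.84 to −0.45, limma adjusted p = 0.235). Ccl6, its neighbour and another mouse Ccr1 ligand, stood at −0.61, −0.60 and −3.72, then −0.26, −0.95 and −1.92, then −2.70, −3.88 and −1.77. The groups overlapped, with satellite replicate 2 the lowest of the 9 arrays. Ccl24, an eotaxin that like Ccl11 acts on Ccr3, stood at 1.85, 2.03 and 0.92, then 2.58, 1.57 and 1.71, then 0.39, 1.75 and 3.13, with overlap of all groups. The other Ccl24 probe also overlapped.

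The inflammatory ligands Ccl3 and Ccl4, which draw macrophages and T cells, were near the background, and they are given because their values, once seen, were uneven. Ccl3 was well above background on 1 of 9 arrays, iPax7 replicate 1, at 2.72, and was not tested. Ccl4 was above background on 3 of 9 arrays, at −4.15 on iPax7 replicate 3, −5.60 on satellite replicate 1 and −1.96 on satellite replicate 3. None of the iPax3 arrays read it above background, so its iPax3 level has only a bound.

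Among the homeostatic ligands that place lymphocytes in tissues, 0 of 13 measured genes passed in any comparison. The Ccl21c probe, which reads the Ccl21 copies that attract Ccr7-bearing cells and are made by lymphatic endothelium and lymphoid stroma, stood at 0.82, 2.04 and −2.03 in iPax3, 4.65, 1.32 and 3.21 in iPax7 and −1.21, −0.59 and −1.08 in satellite cells. All iPax7 arrays were above all satellite arrays, while the iPax3 arrays fell on both sides of them. The difference was 4.02 ± 1.18 for iPax7 against satellite cells (95% interval 1.36 to 6.67, limma adjusted p = 0.217) and 2.78 ± 1.18 between the lines (limma adjusted p = 1). Ccl19, the other ligand of Ccr7, depended on the probe. The brighter one read 0.63, 2.47 and −0.19, then 1.62, 1.67 and 1.93, then 1.76, 1.75 and 2.33, while the other read 1.13, 2.49 and 0.81, then 0.62, 1.25 and 1.34, then 0.91, −2.08 and −2.21. The first placed the satellite arrays at or above most re-isolated ones and the second placed 2 of them below every re-isolated array.

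Cxcl13, which attracts B cells through Cxcr5, was above background on 3 of 9 arrays and is described because its spread was wide. It read 0.50 on iPax3 replicate 3, 3.97 on iPax7 replicate 1 and 0.65 on iPax7 replicate 2. On the 6 other arrays, the 3 satellite arrays among them, it was not well above background. Arrays of the same line therefore fell on both sides of the detection limit.

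**Figure D3:**
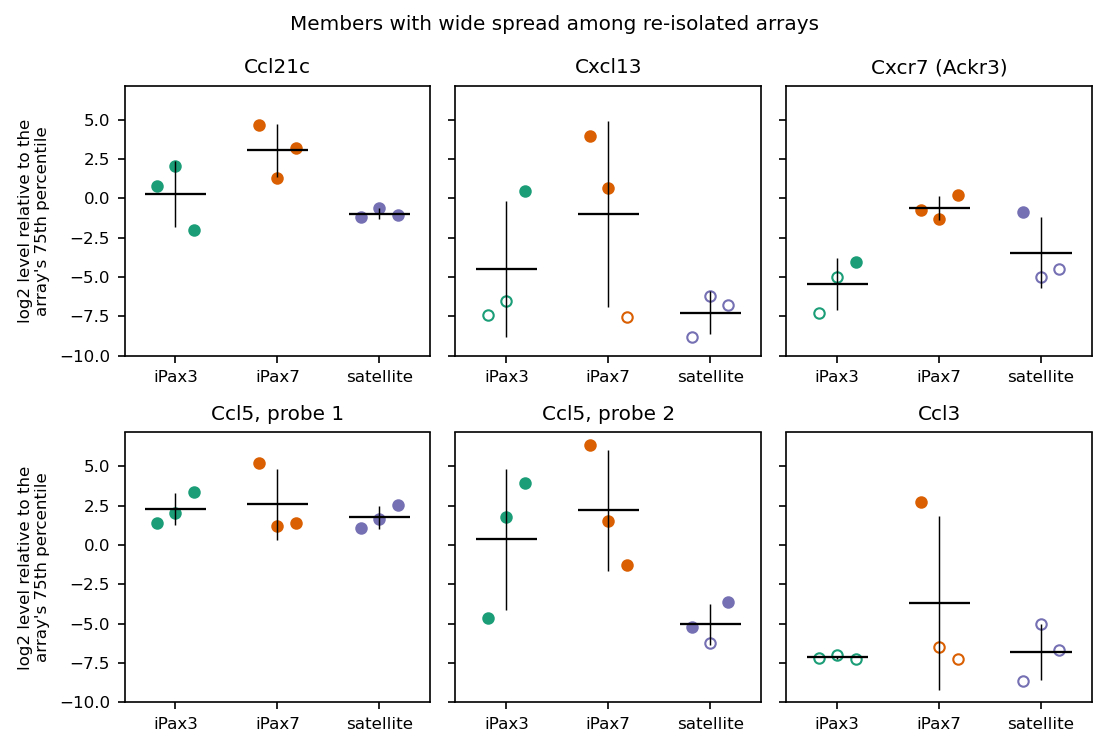
Members whose level varied widely among the re-isolated arrays. The y axis is the log2 signal minus that array's 75th percentile, points are arrays (open where not well above background), horizontal lines are group means and vertical lines their SD (n = 3). Cxcr7 is 0.22 at most in iPax7 and −4.06 at most in iPax3, both Ccl5 probes are highest on iPax7 replicate 1, and Ccl3 is above background only there.

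Ligands of skin and mucosal homing did not pass the test. Ccl25, the ligand of Ccr9, was read at 4.11, 3.85 and 4.06 in iPax3, 3.80, 3.84 and 4.42 in iPax7 and 3.80, 5.07 and 5.55 in satellite cells. Ccl28, a mucosal ligand of Ccr10 and Ccr3, stood at −0.15, −0.38 and −1.28, then −0.07, 0.04 and 1.83, then −0.49, 1.49 and 1.32. In both genes satellite replicate 1 lay among the re-isolated arrays and the other satellite arrays lay at the upper end. Ccl27, a ligand of Ccr10 made by keratinocytes, stood at −0.93, −1.04 and −0.45, then −0.65, 1.24 and 0.48, then 1.18, −1.38 and 1.73, with overlap of all groups. From satellite cells, iPax3 differed by −1.37 ± 0.85 for Ccl28 (95% interval −3.30 to 0.55) and by −1.32 ± 0.94 for Ccl27 (95% interval −3.43 to 0.79). For iPax7 the differences were −0.17 ± 0.85 and −0.15 ± 0.94. Ccl17, a ligand of Ccr4, varied less among the re-isolated arrays than any other tested member, at −0.16, −0.16 and −0.10 in iPax3 and −0.22, −0.32 and −0.28 in iPax7, beside −0.54, 1.09 and 0.51 in satellite cells. All iPax3 arrays were above all iPax7 arrays by this small margin.

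Cxcl12, the stromal ligand that holds stem cells and progenitors in their niche and acts on Cxcr7 among others, stood at −2.12, −1.55 and −1.30 in iPax3, −1.20, −2.19 and −1.37 in iPax7 and 0.15, −1.25 and −0.67 in satellite cells. Satellite replicate 2 lay within the re-isolated range and the other satellite arrays above it. The difference was −1.03 ± 0.60 (95% interval −2.37 to 0.31, limma adjusted p = 0.438). Most fibroblast markers were higher in the re-isolated cells, and their part in the Cxcl12 level was not tested. The other Cxcl12 probe was above background on 2 arrays only and was not tested. These were iPax3 replicates 2 and 3, at −2.81 and −3.33. Cxcl14, a stromal and epithelial chemokine, stood at 1.5, 2.69 and 0.65, then −0.31, 0.14 and 1.34, then −0.09, −1.63 and 3.22, with the lowest and the highest array both in satellite cells.

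Cxcl1, which attracts neutrophils through Cxcr2, was read on all 9 arrays at 4.48, 3.5 and 4.24 in iPax3, 4.11, 3.06 and 3.26 in iPax7 and 3.28, 1.95 and 4.76 in satellite cells. Its groups overlapped, and both lines differed from satellite cells by 0.45 ± 0.73, with a 95% interval from −1.19 to 2.08. Cxcl2, the next gene on chromosome 5 among the members and another Cxcr2 ligand, stood at −1.90, −4.24 and −0.84, then −5.93, −3.36 and −5.27, then −2.49, −6.29 and −3.42. It too overlapped in every comparison with satellite cells. Cxcl5 was above background on none of the 9 arrays, and Cxcl15 was not tested.

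The ligands that are anchored in the membrane gave no separation of the groups. Cx3cl1, fractalkine, stood at −1.0, −0.02 and −1.20, then −0.74, −0.53 and −0.17, then −0.03, 0.40 and −0.36. Cxcl16, the ligand of Cxcr6, read 1.97, −2.27 and 2.46, then −4.05, 1.60 and −3.06, then −0.55, 0.38 and −2.90 by its brighter probe, and −0.80, −1.11 and −4.04, then −2.21, −2.88 and −3.75, then −3.58, −3.01 and −0.22 by the other. On iPax3 replicate 3 the first Cxcl16 probe had its highest value and the second its lowest, so the gene's level could not be given from these probes.

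The receptors gave no call in any comparison. Cxcr7, a scavenging receptor that takes up Cxcl12 without signalling through G proteins and that endothelial and stromal cells carry, differed between the lines without passing the test. It stood at −7.30, −5.03 and −4.06 in iPax3, −0.76, −1.30 and 0.22 in iPax7 and −0.85, −5.01 and −4.49 in satellite cells, and was well above background on 1, 3 and 1 of these arrays. All iPax7 arrays were above all iPax3 arrays. The difference between the lines was 4.85 ± 1.25 (95% interval 2.03 to 7.67, limma adjusted p = 0.829), and that of iPax7 from satellite cells was 2.84 ± 1.25 (limma adjusted p = 0.401) or, without satellite replicate 1, 4.14 (limma adjusted p = 0.104). As 2 of 3 iPax3 arrays did not read it above background, the size depends on the background correction: the lines differed by 2.19 with normexp and by 3.03 in the deposited table (limma adjusted p = 0.917 and 0.581). Within the slide that held 3 iPax3 arrays and a lone iPax7 array, replicate 1, the lines differed by 4.70 log2 units.

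Endothelial genes were read beside Cxcr7, and they followed it in part. Tek, the angiopoietin receptor of endothelial cells, read 3.25, 1.88 and 0.63 in iPax7 and 1.05 on satellite replicate 1, and on the other 5 arrays, those of iPax3 and the other satellite arrays, it was not well above background. The tight junction gene Cldn5 stood between 1.61 and 3.5 in iPax7, between −1.65 and 0.07 in iPax3 and between 0.97 and 2.86 in satellite cells. Over all 10 endothelial markers, 8 were higher in iPax7 than in iPax3, beside 53.3% of all genes, and 0 passed the test. The summed signal lay between 3.11 and 6 in iPax7, between 2.28 and 2.70 in iPax3 and between 3.32 and 4.34 in satellite cells. On iPax7 replicate 3, where Cxcr7 was highest, the summed signal was the lowest of the iPax7 arrays and Pecam1 (CD31) stood at −1.71, the lowest of all arrays. Their part in the Cxcr7 levels was not tested.

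On a list of 5 scavenging receptors that includes Cxcr7, Ackr1, the Duffy receptor of venular endothelium and red cells, stood at −1.25, −1.09 and 1.28 in iPax3, 4.73, 1.15 and 2.53 in iPax7 and −2.02, −0.85 and −1.08 in satellite cells. All 5 listed genes had a higher mean in iPax7 than in iPax3, as did 53.3% of all genes. Their median difference was 2.02 beside 0.07 over all genes, and 0 of 5 passed the test. Ackr1 was read above background on all 9 arrays.

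Ccr2, the monocyte receptor of Ccl2 and Ccl7, stood at −2.87, −2.72 and −1.48 in iPax3, −3.60, −3.17 and −2.91 in iPax7 and −3.00, −2.87 and 2.61 in satellite cells. Satellite replicate 3 stood far above the 8 other arrays. Of 13 myeloid markers, 3 were highest on it, beside 24.7% of all genes, so nothing is read from this count. The 3 were Lyz2 (lysozyme) at 3.04, Cd14 at 0.56 and Cd74 at 0.67. On the same array the macrophage gene Adgre1 (F4/80) stood at −5.63 and Ptprc (CD45) at −3.76. The part of these markers in the Ccr2 level was not tested. Ccr3, the receptor of Ccl11, stood at −4.23, −3.32 and −3.22, then −1.58, −4.41 and −3.20, then −4.46, −4.10 and −4.51 by its brighter probe, with overlap of the groups. Cx3cr1, the receptor of Cx3cl1, stood at −2.04, −1.5 and −3.59, then −1.77, −2.36 and −2.49, then −2.77, −0.52 and −2.10 by its brighter probe, with overlap. The other Cx3cr1 probe read −4.29, −3.69 and −3.76, then −2.88, −3.86 and −3.05, then −5.55, −4.66 and −4.36. All re-isolated arrays were above all satellite arrays, with next to no gap between −4.29 and −4.36. By that probe both lines differed from satellite cells by 1.27 ± 0.62 (adjusted p = 0.388 in the limma fit over single probes), and by the brighter one by −0.50 ± 0.76, so the probes differ in sign. Ccr1 was read above background on 1 array and was not tested.

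Receptors of lymphocytes and dendritic cells gave 0 calls among 7 measured genes of a list of 9. Ccr10, which binds Ccl27 and Ccl28, stood at −2.32, 0.50 and −2.70 in iPax3, −3.63, −1.93 and −4.18 in iPax7 and 0.86, 2.61 and −1.68 in satellite cells. All iPax7 arrays lay below the satellite arrays, and iPax3 replicate 2 lay among them. Both lines differed from satellite cells by −2.97 ± 1.11 (95% interval −5.48 to −0.46, limma adjusted p = 0.26).

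Ccr8, the receptor of Ccl1 and in the mouse of Ccl8, stood at −2.84, −4.57 and −4.29, then −4.90, −6.33 and −4.21, then −4.20, −1.06 and −2.94. Ccr9 stood at −0.89, −2.10 and −2.45, then −1.89, −1.71 and −1.44, then −0.92, −0.52 and −0.58. For both, all iPax7 arrays lay below the satellite arrays, for Ccr8 with next to no gap at the nearest pair. Only 1 of 3 iPax7 arrays read Ccr8 well above background. Ccr6, the receptor of Ccl20, stood at −1.08, −0.83 and −1.56, then −1.46, −1.5 and −0.49, then −0.80, −0.62 and 0.61. Here it was the iPax3 arrays that all lay below the satellite arrays, with next to no gap between −0.83 and −0.80.

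The remaining lymphocyte receptors overlapped between all groups. Ccr4 stood at −2.69, −3.34 and −2.81, then −0.86, −2.18 and −4.98, then −4.30, −1.02 and −3.80. Ccr7, which brings naive T cells and dendritic cells to lymph nodes, stood at −4.54, −4.95 and −3.16, then −3.66, −5.50 and −3.22, then −5.88, −5.36 and −3.93. Cxcr3, a receptor of activated T and NK cells, stood at −3.87, −2.96 and −4.35, then −1.14, −3.70 and −4.10, then −3.57, −2.46 and −2.0. The highest array was iPax7 replicate 1 for Ccr4 and Cxcr3 and iPax3 replicate 3 for Ccr7.

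**Figure D4:**
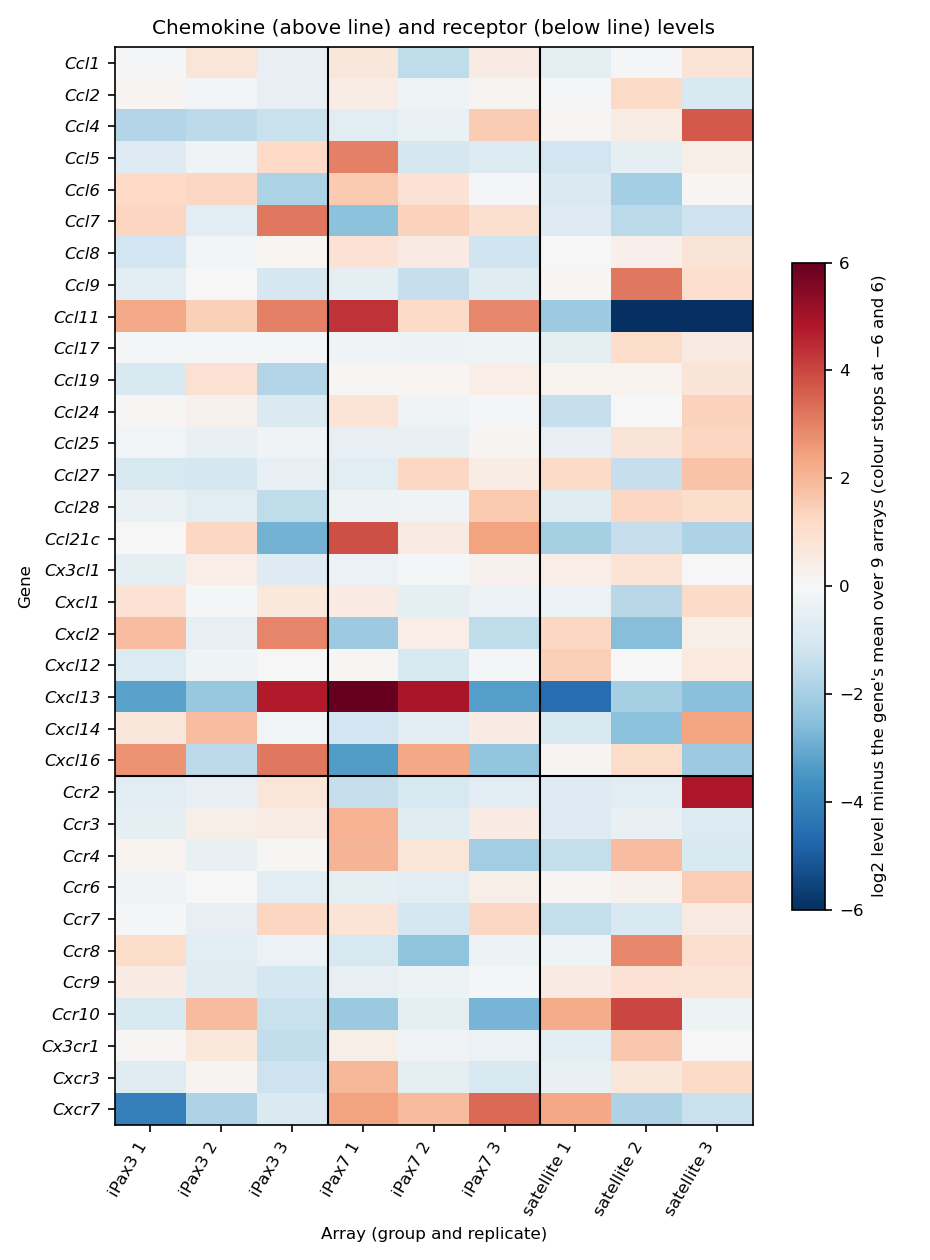
Levels of the 34 tested members on each array, as the log2 level minus the mean of that gene over the 9 arrays (colour scale, −6 to 6). Columns are arrays by group and replicate, rows are ligands above the horizontal line and receptors below it. Ccl11 is the row in which all 6 re-isolated columns are above the mean and all 3 satellite columns below it. iPax7 replicate 1 holds the highest value of 9 members, beside 16.6% of all genes.

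Single arrays held many of the extreme values, as the colour map of levels by array shows. iPax7 replicate 1 was the highest array for 9 of 34 members, namely Ccl5, Ccl6, Ccl8, Ccl11, Ccl21c, Cxcl13, Ccr3, Ccr4 and Cxcr3, while it was the highest for 16.6% of all genes. Satellite replicate 3 was the highest for 9 members (24.7% of all genes) and satellite replicate 2 for 8 (15.3%). These arrays also had the lowest shares of spots well above background: 57.2% on iPax7 replicate 1, 60.8% on satellite replicate 3 and 57.4% on satellite replicate 2. Nothing is read from the counts. Of 13 lymphocyte and NK cell markers, 2 were highest on iPax7 replicate 1, Cd3e, a subunit of the T cell receptor complex, at 2.79, and Nkg7, a granule gene of T and NK cells, at 5.84, and 2 were lowest there, Cd79a at −6.37 and Ncr1 at −1.30. Of 13 myeloid markers, 2 were highest there, Ptprc (CD45) at 2.01 and Cd68 at 2.42, and 1 was lowest, Fcer1g at −2.78. The summed lymphocyte and NK cell signal, to which Nkg7 gave the most, was 6.18 on that array and between 3.09 and 5.57 elsewhere, and the part of these markers in the members' levels was not tested.

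The other members were at or below the detection limit. Ccl12 and Cxcl5 were above background on no array, and members such as Ccl3, Ccl20, Ccl22, Ccr1, Cxcl4, Cxcl15 and Cxcr6 on 1 or 2 arrays by their best probe, so 10 of the 44 genes have no tested difference. These include Cxcl4, the platelet factor now called Pf4, and Ccl22, a ligand of Ccr4 made by dendritic cells and macrophages.

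Genes that work with chemokines were read from lists of the pathway. None of 23 genes of receptor signal transduction, such as G protein subunits, arrestins and receptor kinases, passed in any comparison, with a median difference of 0.43 for both lines against satellite cells. The NF-kB pathway drives many chemokine genes, and 21 genes of it and its early targets were measured. Of these, 2 passed for both lines, both higher, beside 1.04% of all genes. The median of the 21 genes was −0.49, beside −0.16 over all genes. Of the 2 genes that passed, the first was Ptgs2, the inducible prostaglandin synthase, at 1.01, −2.74 and 0.05 in iPax3 and 0.65, −0.71 and 0.31 in iPax7. It was not well above background on any satellite array. With each satellite array set at the lowest signal well above background on it, Ptgs2 was at least 30.7-fold higher in the re-isolated cells. This bound is for the main background correction and does not hold for normexp, which gave a smaller difference. The fitted difference, which uses the unread satellite values, was 6.82 and passed (limma adjusted p = 0.0112). That call was lost with normexp (a log2 difference of 2.48, limma adjusted p = 0.196), with the mean of probes (4.60, 0.119), with slide (6.75, 0.11) or scan day (6.89, 0.0779) as a random block, and without satellite replicate 3 (6.96, 0.0514). The other was Icam1, an adhesion receptor for leukocytes, at 4.05, 3.5 and 3.84, then −1.56, 0.92 and 1.96, then −2.20, −6.22 and −6.37, with 1 satellite array above background. By its brightest probe Icam1 differed by 7.05 ± 1.11 for both lines (limma adjusted p = 0.0242). That size is set against satellite arrays of which 2 did not read it. Icam1 passed for iPax3 alone (8.73, limma adjusted p = 0.0288) and did not for iPax7 alone (5.37, limma adjusted p = 0.137). With normexp both lines differed by 3.95 (limma adjusted p = 0.0173). Another Icam1 probe, above background on all 9 arrays, gave a difference of 0.09 (limma adjusted p = 0.944). The probes of the gene therefore do not give the same difference. The call of Icam1 was also lost with the mean of probes (3.57, limma adjusted p = 0.0661). It was lost with slide (7.30, 0.0929) or scan day (6.88, 0.141) as a random block and with the replicate block (7.05, 0.0643). Among the fits without a single array, only those without iPax7 replicate 1 (7.55, 0.0216) or satellite replicate 1 (8.41, 0.00536) kept it. The other fits gave limma adjusted p between 0.0507 and 0.109.

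Of 11 genes of chemokine processing and presentation, 1 passed for both lines against satellite cells, beside 1.04% of all genes. Mmp14, a membrane-bound matrix metalloprotease that can cleave chemokines, stood at 5.80, 5.06 and 6.07 in iPax3, 6.27, 5.20 and 5.07 in iPax7 and 0.31, −4.16 and −3.28 in satellite cells. All re-isolated arrays were above all satellite arrays, and both lines differed from satellite cells by 7.96 ± 0.97 (limma adjusted p = 0.00817). Mmp14 is also made by fibroblasts, whose markers moved the same way, and their part in it was not tested. Among 5 measured genes related to chemokines that the name rule did not take, such as Mif and Xcr1, 0 passed.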

How the data were processed

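The deposited scanner tables hold an intensity per spot. Per the file headers, it was extracted with version 10.5.1.1 of Agilent Feature Extraction, and the processed signal is background-subtracted and detrended. The deposited value table holds log2 values that the authors derived from the same arrays; the submitters' processing notes name limma, and it served as an alternative only.

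Here log2 processed signals were set relative to each array's 75th percentile over non-control spots. Outlier spots were left out and spots of a probe averaged. Probes well above background on at least 3 of 9 arrays were kept (32985 of 41174), and the probe with the highest mean stood for its gene (22705 genes; member symbols as in the files). A fit over all 9 arrays with limma 3.58.1 in R 4.3.3 (6 residual and 3.2 prior degrees of freedom, no block) was adjusted by Benjamini-Hochberg over all genes at 0.05. The script was tested on simulated data. Values after ± are SEs of the fit.

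The members, the lists and the tests were chosen with earlier results of these data known. Array values are given for members above background on all 3 arrays of a group, called in any comparison, or with re-isolated and satellite arrays apart; Ccl3, Ccl4 and Cxcl13 were added after their values were seen. Nothing in the labels says that the arrays of a group are separate cultures or animals beyond 3 independent experiments, so p-values measure the spread between arrays. Same-numbered arrays of different groups correlated between −0.129 and 0.063 in their deviations from the group means. Arrays of unlike number correlated between −0.094 and 0.177. No pairing by number was seen, but 3 arrays per group cannot exclude it. The number of arrays limits the precision. Alternatives were other scalings, the background correction, the filter, the choice of probe, blocks and leaving out each array. A member that is not named in the text is not reported here.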

Additional observations from a re-analysis of the deposited data

How the results depend on the processing

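The call of Ccl11 for both lines held in 9 of 11 alternatives (differences 4.17 to 8.10) and in 5 of 9 fits without an array (6.71 to 8.94). For iPax3 against satellite cells the members called rose from 0 to 1 with quantile normalization, the mean of probes, the deposited table, and trend with robust fitting, and lay between 0 and 1 without single arrays. For iPax7 the count fell from 1 to 0 over probes above background on all 9 arrays, which leave Ccl11 out, with only the groups compared, and with slide or scan day as a random block; for both lines it was 0 under the first and the last 2 of these. Without single arrays both counts lay between 0 and 1. Between the lines the count was 0 throughout. With the replicate block the counts stayed at 0, 1, 1 and 0 and the median at −0.54 for iPax3, so the block changed no call of a member. Median scaling moved the median of all genes from −0.19 to −0.59 for iPax3, from −0.15 to −0.38 for iPax7 and from −0.16 to −0.47 for both lines, and that of the members to −0.94, −0.42 and −0.61. Without a filter the members' median was −0.29 for iPax3 and −0.06 for both lines. The mean of probes gave −0.13 and 0.00, and every probe on its own −0.16 and −0.06. Over probes above background on all 9 arrays it was −0.54 for both lines. Between the lines it was 0.55 with slide as a fixed block and within the shared slide, both chosen after the slide numbers were seen. Leaving out single arrays gave medians from −0.74 to −0.14 for iPax3, −0.47 to −0.01 for iPax7, −0.51 to −0.10 for both lines and −0.09 to 0.33 between the lines. The difference of Ccl2, which was not called, changed sign to 0.13 with quantile normalization, 0.02 with normexp and 0.12 in the deposited table, and lay between −0.59 and 0.47 without single arrays; that of Ccl11 between the lines lay between −0.23 and 1.38. The cause of these shifts was not tested.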

Other observations

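Promoter sequence was matched for 32 of the 44 members in RefSeq (build GRCm38.p6, 250 bases before to 50 bases after the start). A match to the NF-kB consensus, on either strand, stood in 7 of these 32 promoters (21.9%) and in 5.14% of the promoters of 27025 genes. TATAAA stood in 8 (25.0%, all genes 15.7%) and TTCNNNGAA, the motif bound by STAT factors, in 3 (9.38%, all genes 9.55%), each searched on both strands. No promoter of Ccl11 was among those matched. The neutrophil attractants Cxcl1 and Cxcl2, neighbours on chromosome 5, carry the same 10 matched bases. These are in capitals, with 8 bases on each side, and are shown so that the shared match can be read. Neither gene passed the test in any comparison.
Cxcl1, chr5:90891166-90891191, plus strand: tgtactccGGGAATTTCCctggcccg
Cxcl2, chr5:90903794-90903819, plus strand: tgagctcaGGGAATTTCCctggtccc
Relative to the annotated starts, the matches begin at −71 and −97. A match describes letters in the window and not a bound site.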
